A study of Hakea laurina with 6 samples.

Results

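The transcription factors described here are 34 contigs of a de novo transcriptome of Hakea laurina, a woody Proteaceae that forms cluster roots on phosphorus-poor soil. They are the contigs of the authors' annotated table whose Arabidopsis description contains the words myb, helix-loop-helix or bHLH and whose CPM (estimated counts scaled to a common library size) was 1 or more in all libraries of at least 1 root type. Of 49 contigs with these words, 34 reached that minimum, 18 of them MYB contigs matching 15 Arabidopsis genes and 16 of them bHLH contigs matching 12 Arabidopsis genes. The annotated table has 7819 contigs, 4604 of which reached the same CPM minimum, and the whole assembly has 183999. The members were selected on measured values, because the table holds only contigs that differed in the authors' own test between the same root types. The differences below are therefore a description. No p-value and no call is given for a single member, and counts of calls are given only beside those of other contigs.

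RNA-Seq covered mature cluster roots (MCR, 3 libraries) and the tips of lateral roots that bear clusters (TCR, 3 libraries). Both root types came from H. laurina seedlings about 3 yr old, grown in a glasshouse in hydroponic solution at low P, to which 6.4 μM P was added every 2 to 3 months. No plants at higher P supply enter the comparison, and all libraries share the genotype and the treatment as far as the labels go. The labels do not say whether the libraries of a root type came from separate plants, so that the spread between them may be technical. The titles of the samples name the root type as used here, but the tissue entered for every library is the opposite root type. If the tissue entries were right, every direction below would be the opposite.

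MYB proteins bind DNA through helix-turn-helix repeats, and in plants most have a pair of such repeats. They control phenylpropanoid and flavonoid synthesis, secondary wall deposition, the endodermal barrier and the fate of epidermal cells. bHLH proteins bind DNA as dimers through a basic region next to a helix-loop-helix, and different subgroups act in iron uptake, jasmonate response and vascular and epidermal development. In Arabidopsis some bHLH proteins, such as GLABRA3, act in 1 complex with a MYB protein and a WD40 protein. The roles named below were established in Arabidopsis, and a contig carries an Arabidopsis name only as its closest match.

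The estimated counts summed to between 15718871 and 19119494 in the MCR libraries and between 13583740 and 16622567 in the TCR libraries. Contigs with at least 1 count were 119736, 135523 and 87361 in MCR1, MCR2 and MCR3. In TCR1, TCR2 and TCR3 they were 95758, 106702 and 85093. As a check of the labels, root tip markers (meristem regulators, B-type cyclins and their kinases, and KNOLLE) had 13 contigs for 10 of 20 listed genes, and their summed level was 44.5 to 49.9 CPM in MCR and 291 to 541 CPM in TCR. PLT1, a meristem regulator, had 0.0608 to 0.0679 CPM in MCR and 5.55 to 38.8 CPM in TCR, and WOX5, a marker of the quiescent centre, was at 0 in MCR2 and MCR3. Contigs described as phosphate transporters, purple acid phosphatases or ALMT, which mark mature cluster roots, summed to between 17613 and 27338 CPM in MCR and between 2638 and 2947 CPM in TCR. Both lists thus ran in the direction that the sample titles give, not that of the tissue entries. Contigs of photosynthesis, for green tissue, summed to 12.8 to 83.8 CPM in MCR and 39.6 to 50.5 CPM in TCR. In whole-root RNA, fewer cells of a type and less RNA per cell cannot be told apart, and the part of tip tissue in the differences below was not tested.

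Among the 34 members, 9 had a higher fitted level in MCR and 25 a higher one in TCR. This was 4 and 14 of the 18 MYB contigs, and 5 and 11 of the 16 bHLH contigs. The 26.5% of members higher in MCR stood beside 25.5% of the 4604 annotated contigs under the same minimum. All 3 MCR libraries were above all 3 TCR libraries in 8 members (10.7% of all 49813 contigs tested). All 3 TCR libraries were above all 3 MCR libraries in 25 members (20.3% of all contigs). Among the 4604 annotated contigs past the same minimum, these shares were 21.9% and 71.7%. With edgeR, 5 members were called higher in MCR, against 2.40% of all contigs, and 22 were called higher in TCR, against 5.98% of all contigs, a call being an adjusted p below 0.05 with a log2 fold change of at least 1 in size. Of the 4604 annotated contigs past the same minimum, calls higher in MCR made up 16.9% and calls higher in TCR 53.2%. With the replicate number as a block, 9 members were called higher in MCR and 25 higher in TCR. That fit called 10008 and 7696 of all 49813 contigs, against 1196 and 2981 without the block. Since the authors' selection used the same contrast, nothing is read from these counts. Without TCR1 the counts were 1 and 2, and without TCR2 they were 2 and 3. Over all contigs fitted, 208 and 327 were called without TCR1, and 254 and 397 without TCR2. The count of members called higher in TCR was also reduced, to 8 without MCR1, 11 without MCR2 and 14 without TCR3. Over all contigs fitted, calls higher in TCR were 1563, 1399 and 2654 in these fits.

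The median log2 fold change (MCR over TCR) was -3.11 over the MYB contigs and -2.47 over the bHLH contigs, beside -2.21 over the annotated contigs under the same minimum and 0.57 over all contigs tested. The sizes ran from a log2 fold change of 9.12 for a contig matching MYB58 to -7.23 for a contig matching AT1G72210, a bHLH gene with no symbol in the annotation. CPM values are not divided by contig length, so that levels of different contigs are not compared.

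**Figure D1:**
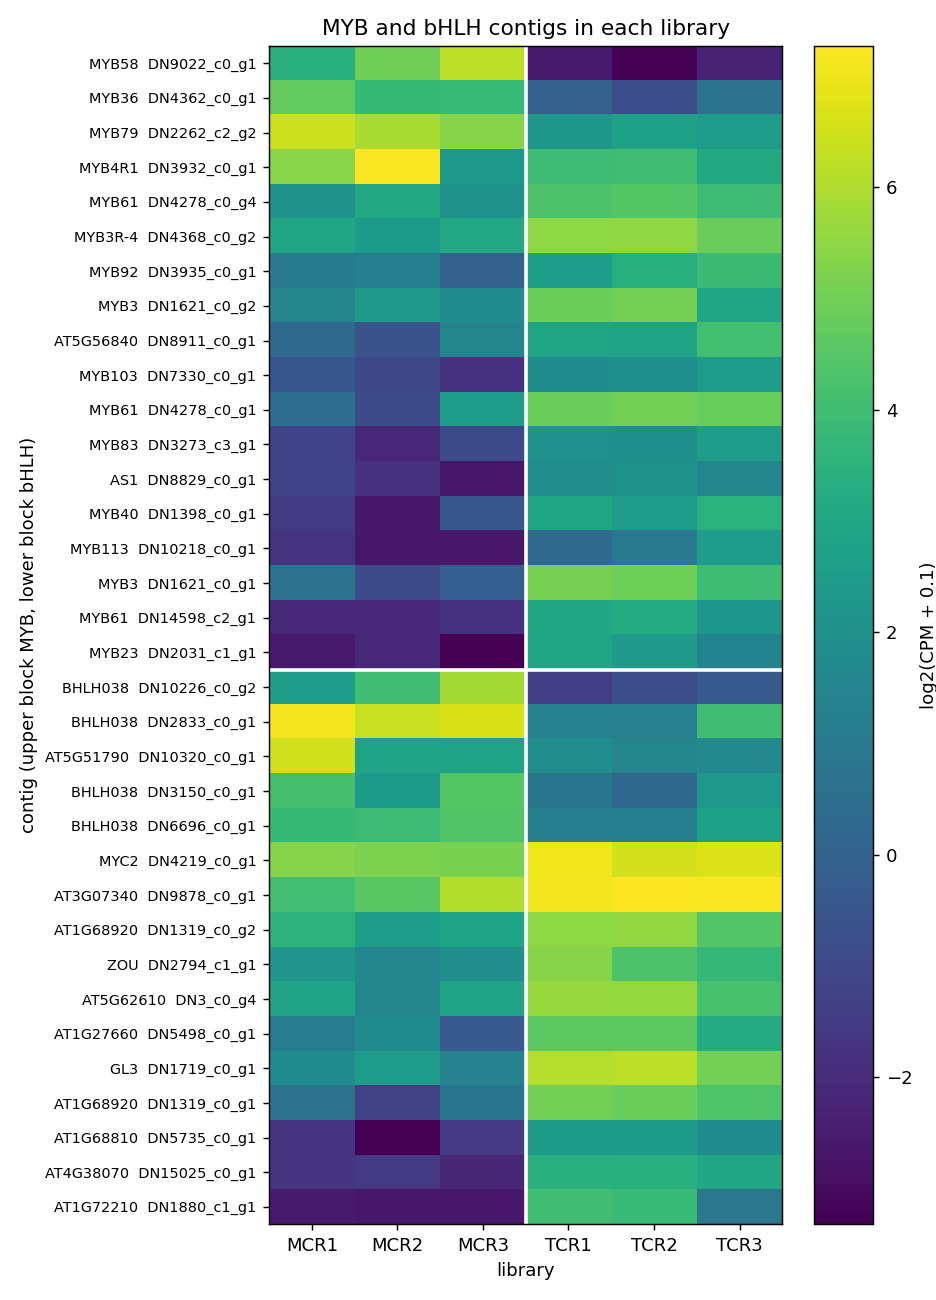
Level of each of the 34 contigs (rows, named by Arabidopsis match and contig) in the 3 MCR and 3 TCR libraries (columns), as log2 of CPM with 0.1 added. The upper 18 rows are MYB contigs and the lower 16 bHLH contigs, each block running down from the most positive to the most negative log2 fold change. The first 4 rows of the MYB block and the first 5 of the bHLH block are those with the higher mean in MCR.

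**Figure D2:**
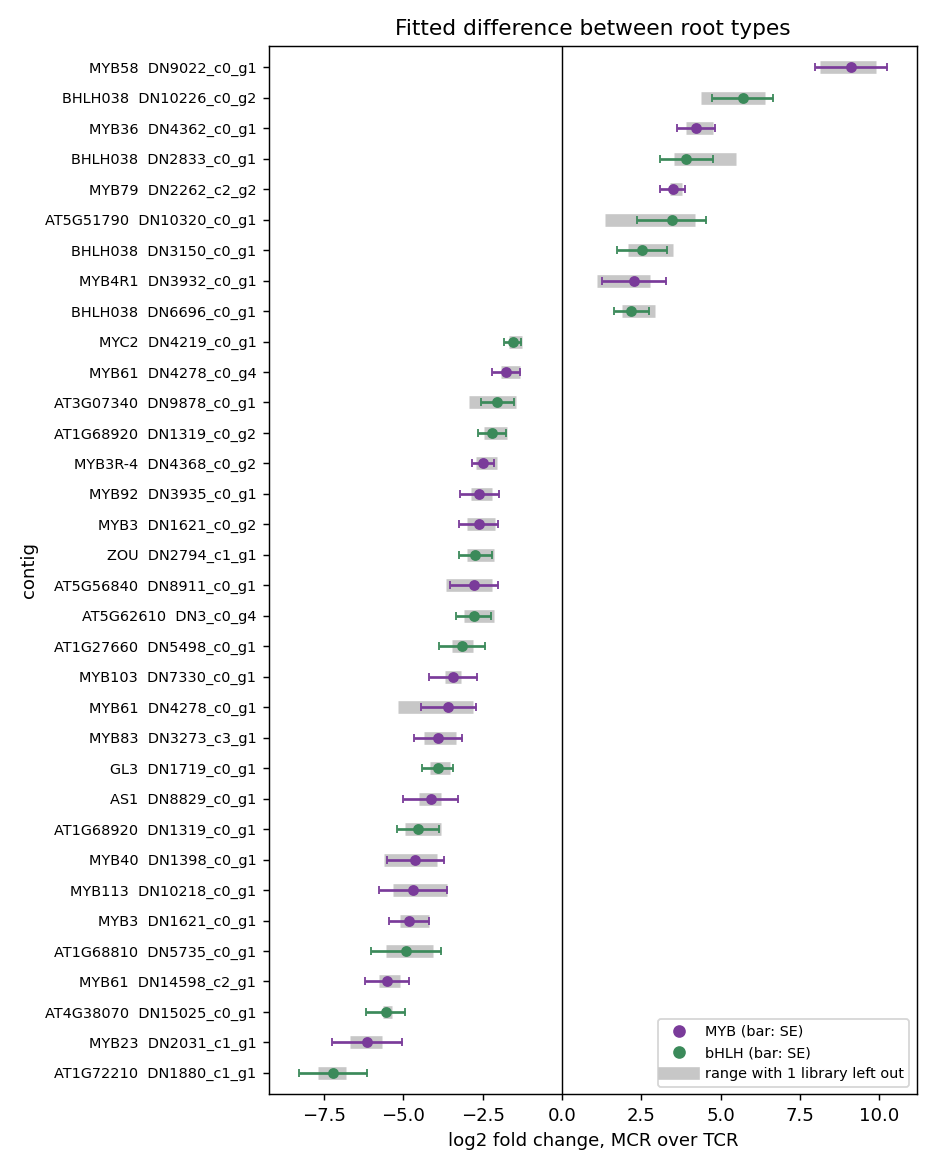
Log2 fold change, MCR over TCR, of the 34 contigs, with points and bars for the fitted value and its SE, and grey bands for the range over fits that left out 1 library each. The 9 contigs higher in MCR lie between 2.18 and 9.12 and the 25 higher in TCR between -7.23 and -1.55, and no band crosses 0.

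The bHLH contigs that were higher in MCR belonged mostly to 1 Arabidopsis gene. BHLH038 (AT3G56970, Arabidopsis chromosome 3, 21084204 to 21085094, reverse strand) is a bHLH factor induced by iron deficiency that works with FIT in switching on iron uptake, and 4 contigs matched it. Contig DN2833_c0_g1 had 137, 84.3 and 99.0 CPM in MCR1, MCR2 and MCR3, against 2.51, 2.33 and 16.2 CPM in TCR1, TCR2 and TCR3. Contig DN10226_c0_g2 had 6.11, 16.2 and 56.9 CPM in MCR, against 0.286, 0.490 and 0.708 CPM in TCR. In both, the lowest MCR library was above the highest TCR library, although the MCR libraries of DN10226_c0_g2 were 9.32-fold apart at their extremes. The other BHLH038 contigs were nearer between root types. Contig DN6696_c0_g1 had 13.7, 15.1 and 20.9 CPM in MCR, against 2.29, 2.21 and 6.42 CPM in TCR. Contig DN3150_c0_g1 had 17.8, 5.30 and 22.1 CPM in MCR, against 1.65, 1.10 and 5.12 CPM in TCR, so that MCR2 was hardly above TCR3.

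The log2 fold changes of the BHLH038 contigs were 5.70 ± 0.96 for DN10226_c0_g2, 3.92 ± 0.83 for DN2833_c0_g1, 2.52 ± 0.79 for DN3150_c0_g1 and 2.18 ± 0.55 for DN6696_c0_g1 (SE, n = 3 each). TCR3 was the highest of the TCR libraries in all 4 contigs. Without TCR3 the value of DN2833_c0_g1 was 5.50, and without MCR3 that of DN10226_c0_g2 was 4.38. Summed over the 4 contigs, BHLH038 had 174, 121 and 199 CPM in MCR, against 6.73, 6.13 and 28.5 CPM in TCR, a 12.0-fold difference of the means.

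FIT, the bHLH partner of BHLH038 in Arabidopsis, had 4 contigs under another description, and they are not among the members. All 4 were higher in MCR. DN772_c0_g3 had 347, 175 and 126 CPM in MCR, against 12.0, 13.7 and 1.80 CPM in TCR, and DN4354_c1_g1 had 118, 134 and 149 CPM in MCR, against 4.15, 5.70 and 1.25 CPM in TCR. TCR3 was the lowest TCR library for these FIT contigs, while all 4 BHLH038 contigs had it as the highest. The other FIT contigs had few reads in TCR. DN772_c0_g1 had 1.97, 5.99 and 29.9 CPM in MCR, against 0.143, 0 and 0.435 CPM in TCR, with TCR3 the highest TCR library, and DN772_c0_g2 had 1.49, 20.7 and 38.8 CPM in MCR, against 0, 0.0613 and 0.0544 CPM in TCR. Of 4 listed genes that act downstream or in control of them (IRT1, FRO2, AHA2 and BTS), 2 had a contig in the annotated table, each at 0 in MCR3 and in all 3 TCR libraries. The iron regulation list, which includes FIT and BHLH038, had 9 contigs for 3 of 14 genes. Of these, 8 had a higher fitted level in MCR and 1 in TCR. The 8 past the CPM minimum were all higher in MCR, beside 25.5% of the annotated contigs past it. The contig higher in TCR matched bHLH34, with 0.0679, 0 and 1.95 CPM in MCR, against 0.930, 1.23 and 12.0 CPM in TCR, and overlapped.

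The fifth bHLH contig with a higher mean in MCR, matching AT5G51790 (no symbol in the annotation), owed its mean to 1 library. It had 90.3 CPM in MCR1 but 6.74 and 6.69 CPM in MCR2 and MCR3, against 3.58, 2.76 and 3.05 CPM in TCR. Its log2 fold change was 3.46 ± 1.08 (SE) with all libraries and 1.35 without MCR1. The root types did not overlap in it.

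Of the 4 MYB contigs with a higher mean in MCR, MYB58 showed the greatest difference of all 34 members. MYB58 (AT1G16490, chromosome 1, 5629859 to 5630844, reverse strand) activates lignin biosynthesis genes in Arabidopsis. Its contig DN9022_c0_g1 had 9.84, 31.4 and 73.7 CPM in MCR1, MCR2 and MCR3, against 0.0716, 0 and 0.109 CPM in TCR. These are 1861 counts over the MCR libraries and 3 counts over the TCR libraries, a ratio of 639 relative to library size with an exact 95% interval of 218 to 3103. That interval covers counting error only. The contig was thus nearly absent at this depth from TCR, and its level within MCR was 7.49-fold higher in MCR3 than in MCR1.

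MYB36 and MYB79 were also higher in MCR with no overlap. MYB36 (AT5G57620, chromosome 5, 23334904 to 23336388, forward strand), which directs formation of the Casparian strip in the endodermis, had 26.5, 13.7 and 14.4 CPM in MCR and 0.859, 0.490 and 1.52 CPM in TCR, a log2 fold change of 4.23 ± 0.61 (SE). MYB79 had 88.2, 61.4 and 40.2 CPM in MCR and 4.80, 6.56 and 5.44 CPM in TCR, with a log2 fold change of 3.50 ± 0.39. MYB79 had the smallest SE of the contigs higher in MCR.

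MYB4R1 was the exception among all members, being the only one whose root types overlapped. It had 41.9, 148 and 4.92 CPM in MCR, against 15.5, 16.0 and 8.60 CPM in TCR. MCR2 was the highest of the 6 libraries and MCR3 the lowest, below every TCR library. Its log2 fold change of 2.28 ± 1.01 (SE) was 1.09 without MCR2. It was also the only member of the 34 (2.94%) whose lowest MCR or TCR library, on its higher side, was under 0.1 of the mean of the other 2, beside 112 of the other 4570 annotated contigs (2.45%).

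**Figure D3:**
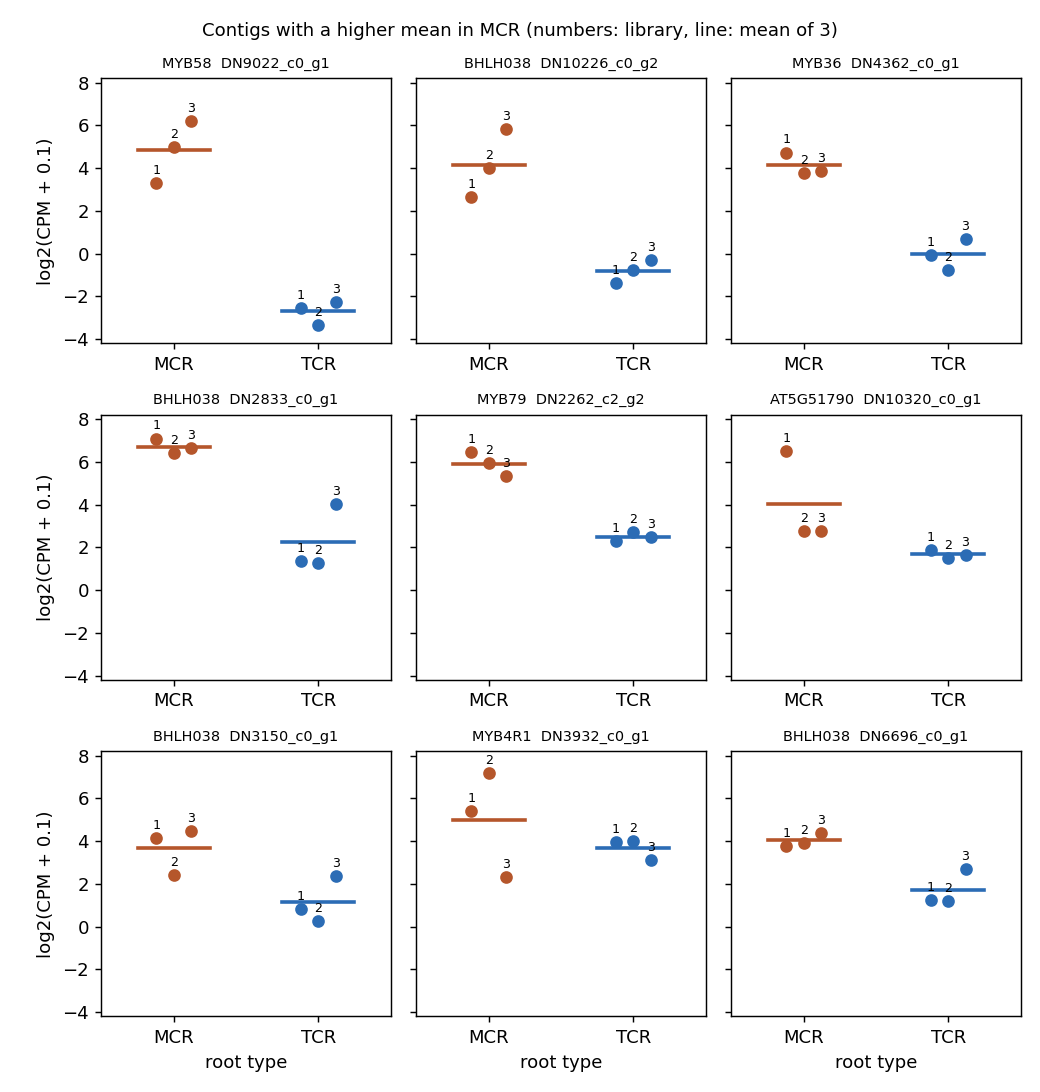
Level of the 9 contigs with a higher mean in MCR, as log2 of CPM with 0.1 added, in each MCR library (left) and TCR library (right), with the replicate number above each point and a line at the mean of the 3 log2 values. MYB4R1 alone overlaps, with MCR3 at 4.92 CPM below all TCR libraries, and in AT5G51790 only MCR1 (90.3 CPM) stands far above TCR.

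The MYB genes of secondary wall formation did not share 1 direction. In Arabidopsis MYB83 is a master switch of secondary wall synthesis in xylem, MYB103 acts below it, MYB61 acts in xylem formation and carbon allocation, and MYB58 switches on lignin genes. MYB83 had 0.339, 0.125 and 0.426 CPM in MCR, against 4.01, 3.74 and 5.99 CPM in TCR. MYB103 had 0.611, 0.374 and 0.182 CPM in MCR, against 3.44, 3.92 and 5.50 CPM in TCR. Both were highest in TCR3 and far lower in every MCR library, with log2 fold changes of -3.91 ± 0.76 and -3.44 ± 0.75 (SE). All 3 MYB61 contigs were lower in MCR too, so that MYB58 was the wall-related MYB of this group with the opposite direction.

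The MYB61 contigs differed in how far apart the root types were. DN14598_c2_g1 had 0.136, 0.125 and 0.182 CPM in MCR, against 7.73, 9.19 and 4.57 CPM in TCR. DN4278_c0_g1 had 1.29, 0.437 and 5.65 CPM in MCR, against 28.5, 32.3 and 28.3 CPM in TCR. DN4278_c0_g4 had 4.14, 8.48 and 4.13 CPM in MCR, against 19.9, 22.1 and 15.1 CPM in TCR. Their log2 fold changes were -5.53 ± 0.69, -3.59 ± 0.87 and -1.77 ± 0.44 (SE), and no library of one root type reached into the other. The spread within MCR was widest for DN4278_c0_g1, 12.9-fold between MCR3 and MCR2, and its log2 fold change was -5.18 without MCR3.

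Among the wall cellulose synthases listed beside these genes (CESA4, CESA7 and CESA8), CESA4 had 2 contigs in the annotated table. The CESA4 contig DN3340_c1_g1 had 12.9, 6.74 and 10.6 CPM in MCR, against 99.3, 84.8 and 179 CPM in TCR, the direction of MYB83, MYB103 and MYB61. The other CESA4 contig, DN105661_c0_g1, had the higher mean in MCR, with 10.7, 21.5 and 0 CPM in MCR, against 2.22, 2.21 and 0.0544 CPM in TCR, and overlapped. LOG4, from the same list, had 1.22, 1.93 and 0.122 CPM in MCR, against 0.0716, 0 and 0 CPM in TCR. AT1G68810, a bHLH gene with no symbol in the annotation, was listed with the xylem genes as T5L1. Its contig had 0.204, 0 and 0.243 CPM in MCR, against 5.44, 5.33 and 3.48 CPM in TCR. In all, the xylem and secondary wall list of MYB and bHLH genes had 9 contigs for 6 of 16 genes. Of these, 2 were higher in MCR and 7 in TCR. Of the 8 past the CPM minimum, 1 was higher in MCR, beside 25.5% of the annotated contigs past it. The contig below the minimum matched LHW and had reads in MCR2 only, at 2.18 CPM. The other LHW contig had 66.8, 55.4 and 44.9 CPM in MCR, against 223, 221 and 166 CPM in TCR.

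**Figure D4:**
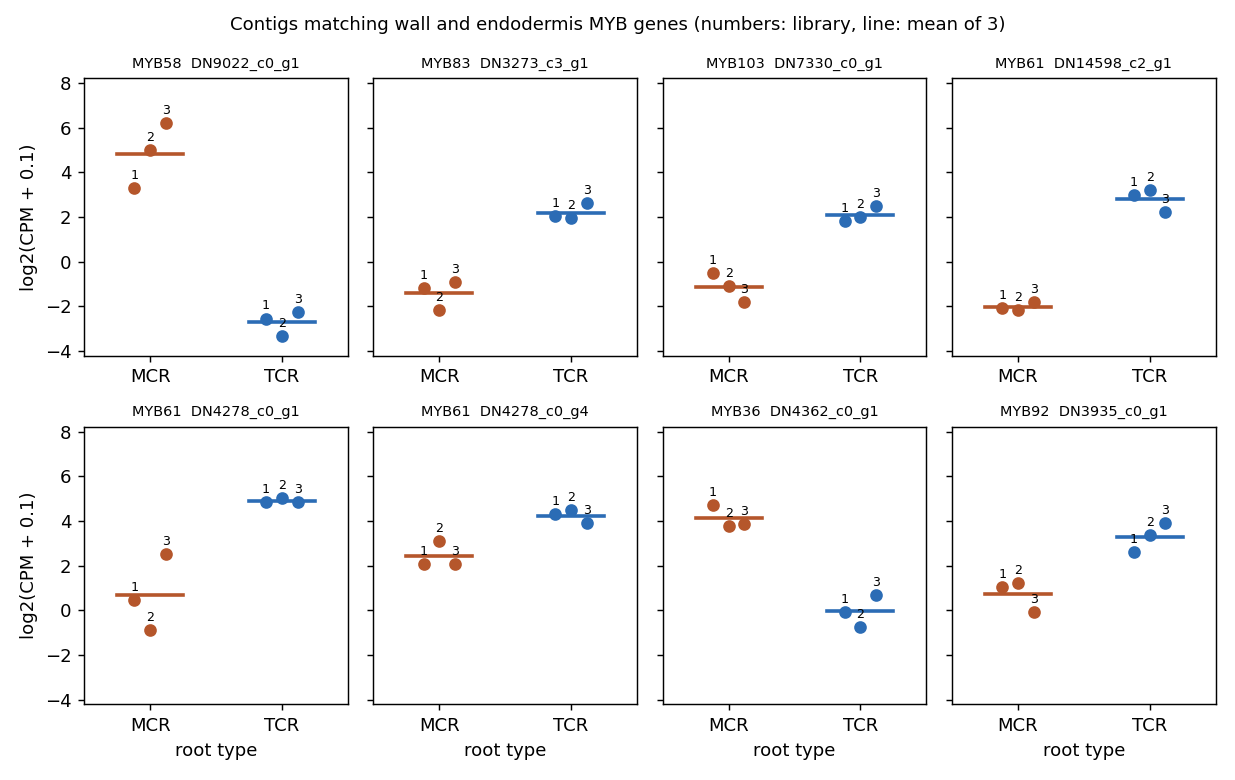
Level of the 8 contigs matching MYB genes of the secondary wall (MYB58, MYB83, MYB103 and MYB61) and of the endodermis (MYB36 and MYB92), as log2 of CPM with 0.1 added, in the MCR libraries (left) and TCR libraries (right) with the replicate number above each point and a line at the mean of the 3 log2 values. MYB58 and MYB36 are higher in all MCR libraries, with log2 fold changes of 9.12 and 4.23, and the other 6 contigs are higher in all TCR libraries.

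The endodermal MYB genes also went in opposite directions. MYB92, which promotes suberin synthesis in Arabidopsis, had 1.97, 2.25 and 0.851 CPM in MCR, against 6.01, 10.2 and 14.9 CPM in TCR, a log2 fold change of -2.61 ± 0.62 (SE). TCR1 was the lowest TCR library for MYB92, 2.48-fold below TCR3. MYB36 was higher in MCR (above). Among the Casparian strip genes listed with MYB36, CASP5 had contigs in the annotated table with the direction opposite to that of MYB36. The CASP5 contig DN9876_c0_g1 had 0.811 to 1.03 CPM in MCR, against 7.13 to 14.6 CPM in TCR, and the CASP5 contig DN9876_c0_g2 had 0.204, 0.437 and 0.912 CPM in MCR, against 15.1, 23.7 and 14.2 CPM in TCR.

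GL3, MYB23, MYB113 and MYB3 were set together here for their roles in epidermal patterning and phenylpropanoid control, after their values were seen. They were lower in MCR, as were 3429 of the 4604 annotated contigs past the CPM minimum. GLABRA3 (GL3, AT5G41315, chromosome 5, 16529457 to 16532866, forward strand), the bHLH partner of MYB proteins in trichome and root epidermis patterning, had 3.33, 5.61 and 2.55 CPM in MCR, against 67.3, 73.3 and 32.9 CPM in TCR. MYB23, a MYB protein of that complex, had 0.0679, 0.125 and 0 CPM in MCR, against 7.52, 5.03 and 2.67 CPM in TCR. Both were lowest in TCR3 among the TCR libraries, and even TCR3 was far above MCR. The log2 fold change was -3.91 ± 0.49 (SE) for GL3. The MYB23 contig had 3 counts over the MCR libraries and 236 over the TCR libraries, a ratio of 76.3 relative to library size with an exact 95% interval of 25.8 to 373.

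MYB113 promotes anthocyanin synthesis and MYB3 represses phenylpropanoid genes. MYB113 had 0.204, 0.0624 and 0.0608 CPM in MCR, against 1.15, 1.78 and 6.10 CPM in TCR. Its TCR level was the least even of the members higher in TCR (coefficient of variation 89.6%), since TCR3 held most of its reads, and its log2 fold change of -4.71 ± 1.08 (SE) was -3.63 without TCR3. MYB3 had 2 contigs. DN1621_c0_g1 had 1.56, 0.437 and 0.790 CPM in MCR, against 33.7, 30.6 and 15.5 CPM in TCR. DN1621_c0_g2 had 2.71, 5.18 and 3.40 CPM in MCR, against 29.4, 33.1 and 7.57 CPM in TCR. An activator and a repressor of the pathway thus had the same direction here.

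Of 8 listed flavonoid enzyme genes (such as CHS, F3H, DFR and ANS), 7 had contigs in the annotated table, and in all 15 of these contigs every MCR library was below every TCR library, with 10 of them called higher in TCR. The CPM minimum was reached by 14 of the 15. Of the 4604 annotated contigs past it, 71.7% had every MCR library below every TCR library and 53.2% were called higher in TCR. The summed level of the 15 was 1312, 188 and 424 CPM in MCR, against 8211, 8403 and 7442 CPM in TCR. MCR1 was the highest MCR library in this sum and MCR2 the lowest. TT2, the MYB partner of flavonoid synthesis in the seed coat, was in the table under another description and is not a member. It had 0.204, 0 and 0 CPM in MCR, against 7.94, 8.89 and 7.51 CPM in TCR. Neither TTG1, the WD40 protein of the complex, nor GL2, its target, had a contig in the annotated table, which holds only contigs the authors found to differ.

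MYB3R-4 and AS1 are regulators of dividing or young tissue in Arabidopsis. MYB3R-4, which has 3 MYB repeats and activates genes of mitosis, had 7.47, 5.30 and 8.21 CPM in MCR, against 44.1, 45.5 and 29.0 CPM in TCR. Its log2 fold change was -2.50 ± 0.35 (SE). AS1 (MYB91), which represses KNOX genes in leaf primordia, had 0.339, 0.187 and 0.0608 CPM in MCR, against 3.58, 4.29 and 2.83 CPM in TCR. Both had their lowest TCR level in TCR3, as did the root tip markers in their sum. The mitotic genes listed with MYB3R-4 had 9 contigs for 6 of 13 genes. Of these 9, 6 were called higher in TCR and 3 had a higher fitted level in MCR with overlapping libraries. Only the 6 were past the CPM minimum, and of the annotated contigs past it 53.2% were called higher in TCR. The 3 were at 0 CPM in MCR3. The summed level of the 9 was 39.2, 28.6 and 16.1 CPM in MCR, against 389, 361 and 231 CPM in TCR. The CYCB1;2 contig DN6390_c0_g1 among them had 0.814, 0.0624 and 0.365 CPM in MCR, against 49.9, 40.3 and 18.7 CPM in TCR.

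The member with the log2 fold change nearest to 0 was MYC2, the bHLH factor at the head of the jasmonate response. It had 40.4, 36.1 and 35.4 CPM in MCR, against 131, 93.6 and 104 CPM in TCR. The MCR libraries of MYC2 lay close together (coefficient of variation 7.24%), and the log2 fold change was -1.55 ± 0.26 (SE), a 2.93-fold lower mean in MCR. None of 11 listed JAZ genes, which encode repressors of MYC2, had a contig in the annotated table.

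ZOU, a bHLH factor known from endosperm breakdown in the Arabidopsis seed, had 4.55, 2.87 and 3.65 CPM in MCR, against 41.0, 19.7 and 13.2 CPM in TCR. The TCR libraries of ZOU were 3.11-fold apart, TCR1 being the highest. MYB40 had 0.271, 0.0624 and 0.608 CPM in MCR, against 7.52, 5.58 and 10.8 CPM in TCR. For MYB40 the log2 fold change was -4.63 ± 0.89 (SE), and -5.60 without MCR3, the highest of its MCR libraries.

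The remaining members are named here by their Arabidopsis gene IDs, since the authors' annotation gives no symbol for them. Among the bHLH contigs, that of AT1G72210 had 0.0679, 0.0624 and 0.0608 CPM in MCR, 1 count in each library, against 16.2, 14.1 and 1.74 CPM in TCR. The ratio was 158 relative to library size, with an exact 95% interval of 53.8 to 770. TCR3 was 9.33-fold below TCR1 in this contig, the widest gap among the TCR libraries of any member with reads in all of them. The contig of AT4G38070 had 0.204, 0.249 and 0.122 CPM in MCR, against 10.4, 9.87 and 7.95 CPM in TCR. This contig moved little between fits, with a log2 fold change of -5.57 ± 0.62 (SE) and values between -5.63 and -5.35 when 1 library was left out. Its matched protein is 1513 amino acids long, against 204 to 637 for the other bHLH matches. Which part of that protein the contig matches is not given.

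The bHLH contig of AT5G62610 had 7.13, 2.74 and 6.87 CPM in MCR, against 49.6, 48.2 and 18.0 CPM in TCR. That of AT1G27660 had 2.17, 3.49 and 0.669 CPM in MCR, against 23.8, 23.9 and 8.98 CPM in TCR. In both, TCR3 was less than 0.5 of TCR1 and TCR2 but above every MCR library. The bHLH contig of AT3G07340 had 17.0, 23.3 and 66.5 CPM in MCR, against 136, 154 and 148 CPM in TCR. Its TCR libraries were nearly equal, while MCR3 was 3.92-fold above MCR1, and its log2 fold change of -2.04 ± 0.53 (SE) was -2.94 without MCR3. The MYB-like contig of AT5G56840 had 1.15, 0.561 and 2.74 CPM in MCR, against 7.52, 6.68 and 16.7 CPM in TCR.

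Where several contigs matched 1 Arabidopsis gene, they had the same direction and differed in size. This held for all 4 such genes, BHLH038 (4 contigs), MYB61 (3 contigs), MYB3 (2 contigs) and AT1G68920 (2 contigs). Summed over its contigs, MYB61 had 5.56, 9.04 and 9.97 CPM in MCR, against 56.1, 63.6 and 48.0 CPM in TCR, a 6.82-fold lower mean in MCR. MYB3 summed to 4.28, 5.61 and 4.19 CPM in MCR, against 63.1, 63.7 and 23.1 CPM in TCR. For MYB3 the sum was more even within MCR than either contig. The log2 fold changes of its contigs were -4.83 ± 0.63 for DN1621_c0_g1 and -2.63 ± 0.62 for DN1621_c0_g2 (SE).

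AT1G68920, a bHLH gene with no symbol in the annotation, showed the same kind of gap. DN1319_c0_g1 had 1.56, 0.312 and 1.64 CPM in MCR, against 32.4, 29.9 and 20.1 CPM in TCR. DN1319_c0_g2 had 11.1, 6.11 and 6.93 CPM in MCR, against 44.0, 46.4 and 21.3 CPM in TCR. The log2 fold changes were -4.54 ± 0.67 and -2.21 ± 0.43 (SE), and MCR2 was the lowest library in both. Whether such contigs are gene copies, alleles or pieces of 1 transcript cannot be told from the counts, and their reads could be split between them. Of the 34 members, 14 share an assembly component with another contig. One of these, the unannotated DN4362_c0_g2 beside MYB36, had 54.0, 49.3 and 115 CPM in MCR, against 50.2, 53.5 and 64.9 CPM in TCR, with overlapping root types. Some ran against their member. Beside AT5G62610, which was lower in MCR, DN3_c0_g2 had 189, 336 and 278 CPM in MCR, against 114, 120 and 114 CPM in TCR. Beside MYB61, also lower in MCR, DN4278_c0_g3 had 405, 384 and 582 CPM in MCR, against 235, 233 and 197 CPM in TCR. What these unannotated contigs encode is not given, and whether they share reads with the members was not tested.

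**Figure D5:**
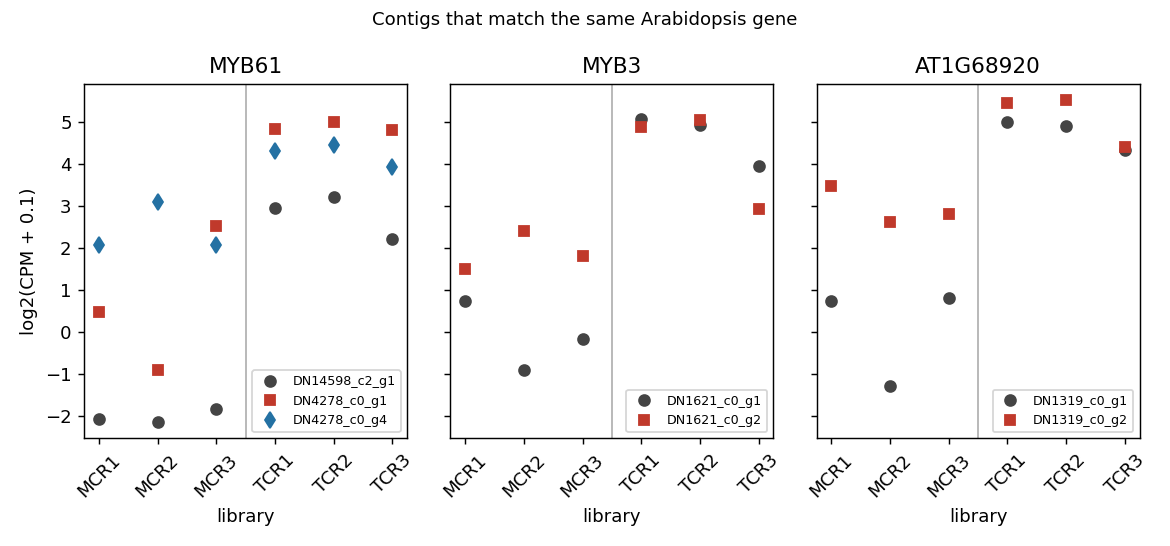
Level of the contigs that match MYB61, MYB3 and AT1G68920, as log2 of CPM with 0.1 added, in the 3 MCR libraries (left of the grey line) and the 3 TCR libraries (right of it), 1 symbol per contig. Every contig is higher in all TCR libraries, and the contigs of 1 gene lie further apart in MCR than in TCR for MYB3 and AT1G68920, with log2 fold changes of -4.83 and -2.63 for MYB3 and of -4.54 and -2.21 for AT1G68920.

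The median coefficient of variation over the 34 members was 53.7% in MCR and 36.9% in TCR, each over 3 libraries. For the 25 members higher in TCR, many with few counts in MCR, it was 52.2% in MCR and 33.0% in TCR, and for the 9 higher in MCR it was 57.9% in MCR and 54.7% in TCR. In MCR it ran from 5.83% (AT1G72210, at 1 count in each library) to 140% (AT5G51790), and in TCR from 6.18% (AT3G07340) to 114% (the BHLH038 contig DN2833_c0_g1). Among the 25 members higher in TCR, TCR3 was the lowest TCR library in 17, TCR1 in 4 and TCR2 in 4. Among the 9 higher in MCR, TCR3 was the highest TCR library in 6. In most members TCR3 was therefore the TCR library nearest to MCR, and the TMM scaling factor was also highest in TCR3 (1.18) and lowest in MCR3 (0.868). In the MCR libraries of the 25 members higher in TCR no such pattern was seen. The highest was MCR1 in 9, MCR3 in 9 and MCR2 in 7.

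The order of the members was alike within a root type. As a description over 34 contigs that share libraries and the selection, Spearman's rho between libraries was 0.88 to 0.93 within MCR, 0.77 to 0.98 within TCR and -0.02 to 0.23 between root types. Over all 49813 contigs it was 0.52 to 0.79 within MCR, 0.83 to 0.95 within TCR and 0.44 to 0.87 between root types. The 0.87 was between MCR3 and TCR3 and lay above every pair within MCR. It also lay above TCR3 with TCR1 (0.829) and TCR3 with TCR2 (0.826). MCR3 had 0.63 with MCR1 and 0.52 with MCR2. For the members, the gap between root types is in part fixed by how they were chosen.

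The CPM minimum divided the contigs near it as follows, by the authors' CPM in the lowest of the 3 libraries where a contig was higher. Just inside were MYB113 with 1.11, AT1G72210 with 2.17, MYB103 with 3.32 and MYB23 with 3.35 CPM. Just outside were bHLH34 with 0.906, AT3G21330 with 0.757, MYB111 with 0.518 and a further MYB3 contig with 0.462 CPM. All of these were higher in TCR. The 15 contigs below the minimum were divided into 8 higher in MCR and 7 higher in TCR. Of the 8, 5 were highest in MCR2, and 5 were listed in MCR3 at 0.01 CPM, the value the authors added to every contig. Over the whole assembly too, MCR2 had the most contigs with a count (135523) and MCR3 the fewest of the MCR libraries (87361). A bHLH contig matching AT3G57800, named here because it was the highest of these in a single library, had 0.0732, 38.2 and 0.0737 CPM in MCR and 0.01 CPM in each TCR library.

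Other genes of these families stand in the annotated table under other descriptions or below the CPM minimum and are not among the members. In the list for root epidermis and hairs, 4 of 15 genes had a contig each, of which GL3 was higher in TCR and the other 3 had a higher fitted level in MCR with overlapping libraries. In the phosphate signalling list, 2 of 6 MYB-related genes had a contig, PHR1 and its relative PHL1. The PHR1 contig had reads in MCR2 only, at 4.05 CPM. PHL1 had 46.8, 39.9 and 112 CPM in MCR, against 4.87, 4.41 and 10.2 CPM in TCR. The SPX and PHO genes listed with these had 5 contigs for 2 of 7 genes, 4 with a higher fitted level in MCR and 1 in TCR. Among the clock-related MYB genes, 4 contigs for 3 of 11 genes were divided into 3 higher in MCR and 1 higher in TCR, and of 7 evening clock genes listed with them only PRR5 had contigs, 1 with a higher fitted level in MCR and 2 in TCR. In the list of PRE, PIF and HEC bHLH genes, 2 of 19 genes had a contig, and both were higher in TCR.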

How the data were processed

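Per the labels and the study's methods, reads were trimmed by the authors with Trimmomatic 0.39, assembled with Trinity and quantified per contig with Salmon 1.9.0, and the estimated counts were deposited without normalization. The CPM values of the second deposited table had been normalized across samples by the authors, with 0.01 CPM added, and served here only for the selection of members and the values near the CPM minimum. That table also holds group means, log2 fold changes, p-values and q-values of the authors' own comparison, made with edgeR 4.0.14, which were not used. Contigs were matched by the authors to Arabidopsis genes (TAIR10), and the coordinates given are those of the matched gene in that annotation. No sequence of the contigs was at hand, so none is shown.

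The estimated counts were rounded to whole numbers. Of 183999 contigs, the 49813 with a mean CPM of 0.4 or more in at least 1 root type were fitted together with edgeR 4.0.16 in R 4.3.3 (TMM, quasi-likelihood test, Benjamini-Hochberg over all contigs fitted). CPM values in the text are TMM-normalized, and the SE of a log2 fold change is its size over the square root of F. The code of the fit was checked on simulated data, in which contigs of the same level had the same spread. That check does not cover single libraries that stand apart or an effect of the replicate number. Summaries were made with Python 3.11.15, pandas 2.3.3, numpy 2.4.6 and scipy 1.17.1, and figures with matplotlib 3.10.9. Intervals of count ratios are exact at 95% and cover counting error only.

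The members, the role lists and the marker lists were chosen with earlier results of these data known. Named with values are, for each direction, the 10 members of greatest log2 fold change with no overlap and a mean of 5 CPM or more, the 10 with the highest mean, members in the role lists, and uneven members. Other members are named because the account covers all 34, and non-members where they belong to the role and pathway lists. Whole-series gene set analyses and sequence comparisons were left out. The full result of the endodermis pathway list is not reported here.

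Libraries with the same replicate number deviated together from their root type means. The correlation across 14706 contigs was 0.336, 0.363 and 0.477 for numbers 1, 2 and 3, on log2 CPM with 0.5 added. It was also 0.316 for MCR1 with TCR2 and 0.185 for MCR2 with TCR1, so numbers 1 and 2 were hardly told apart. Pairs of a number 3 library with one of another number had -0.502 to -0.295. Deviations within a root type cancel out, so these correlations depend on each other and the negative ones follow in part from the positive ones. Only the numbers in the sample titles give this pairing, so the replicate block was fitted as an alternative. Further alternatives were RLE size factors, library size alone, 3 other filters, DESeq2 1.42.0, limma-voom (limma 3.58.1), no minimum of the fold change, and leaving out each library in turn.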

Additional observations from a re-analysis of the deposited data

How the results depend on the processing

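No member changed direction under any of the 14 alternatives fitted for single members, in which 345 of the member values kept their side of the threshold, 95 lost the call and 36 gained one. The 5 members called higher in MCR became 9 with every contig that has a read, 8 with DESeq2 and 9 with the replicate block. DESeq2 gave no p-value for the contig of AT5G51790, which was counted as not called. With 1 library left out they were 1 to 7 (1 without TCR1, 2 without TCR2 and 7 without MCR3). Calls higher in MCR over all contigs fitted went from 1196 to 4959 with every contig that has a read. They were 4119 with DESeq2, 10008 with the block, 208 without TCR1, 254 without TCR2 and 3200 without MCR3. The 22 called higher in TCR became 2 to 22 with 1 library left out (8 without MCR1, 11 without MCR2, 2 without TCR1, 3 without TCR2, 14 without TCR3). They were 16 to 25 otherwise, with 25 under the replicate block. Calls higher in TCR over all contigs fitted went from 2981 to 7696 under the block. They were 1563 without MCR1, 1399 without MCR2, 327 without TCR1, 397 without TCR2 and 2654 without TCR3. The cause was not tested. The median log2 fold change of the MYB contigs, -3.11, was -2.88 with RLE, -3.35 with library size alone, -2.88 where 3 libraries had to reach the CPM minimum, -2.82 with filterByExpr, -2.90 with DESeq2 and -3.41 to -2.74 with 1 library left out. That of the bHLH contigs, -2.47, was -2.17 with RLE, -2.08 with filterByExpr and -2.82 to -1.94 with 1 library left out. The median of all contigs tested was 0.57 with TMM, 0.84 with RLE and 0.37 with library size alone, and all 34 members kept their direction relative to it. Of the calls over all contigs, 28.6% were higher in MCR with TMM, 39.8% with RLE and 19.8% with library size alone. Uneven members were 5 at a fraction of 0.2 and 0 at 0.05, against 1 at 0.1. A CPM minimum of 2 left 33 members and one of 0.4 left 38. Low counts limit AT1G72210, MYB23 and MYB58, whose lower root type held 3 counts in all.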
